A study of Mus musculus with 378 samples.

Results

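The Reg genes were measured by RNA sequencing of pancreatic islets from female and male Diversity Outbred mice. Animals of this outbred stock each carry their own mosaic of the founder strains, so no pair of mice is genetically alike. Per the labels, all mice ate a diet high in fat and sugar (45% fat), and the titles give the sex and a mouse number, such as DO-103, with 1 library per mouse. The labels give no age, treatment contrast or batch. Rows were chosen by symbol: 7 symbols were searched, and 6 rows were found among 22180 genes, namely Reg1, Reg2, Reg3a, Reg3b, Reg3d and Reg3g. Reg4 was not analysed here. Of these 6 genes, 5 passed the filter on low counts that left 16927 genes for testing, and Reg3a did not. The genes were picked for their wide range between mice, so that range is described and not tested. For sex adjustment, mice were also divided into 4 number bands of 100 mouse numbers each, counted from mouse 21, with 46, 46, 49 and 47 females and 45, 48, 50 and 47 males. The labels do not say whether a band corresponds to anything in the handling of the mice. Within a band the females carry the lower numbers, apart from DO-191, so sex and the order within a band cannot be told apart.

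Regenerating (Reg) proteins are small secreted proteins with a C-type lectin fold. In the pancreas they are made mainly by acinar cells, which secrete the digestive enzymes, and are induced strongly when the gland is inflamed or injured. Reg1, also called pancreatic stone protein or lithostathine, is the abundant form in the resting exocrine gland. Reg2 is its close mouse relative. Reg3b (pancreatitis-associated protein) and Reg3g are antibacterial lectins of the gut and are induced in the pancreas through the IL-6 family of cytokines and the factor STAT3. Reg3d is also known as islet neogenesis-associated protein-related protein, and Reg3a is a further member of the group 3 genes. Isolated islets carry some acinar tissue with them, so genes of acinar cells are found in islet libraries at a level that depends on the preparation.

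The 6 genes lie together on chromosome 6 within 98.2 kb (78370657 to 78468872, GRCm38), in the order Reg3b, Reg3d, Reg3a, Reg2, Reg1 and Reg3g, with Reg3d and Reg3g on the minus strand. All 6 positions in the deposited gene table equal those of GENCODE mouse release 21, and all 6 are protein-coding genes. The stretch before the transcription start was compared because the members rose and fell together between mice, as described below. For 4 members the 250 bases before the RefSeq start (GRCm38.p6) are shown on the coding strand, 5′ to 3′. Reg1 and Reg2 are the group 1 and group 2 genes. Reg3b and Reg3g are the pair with the highest Pearson r over mice, with sex and band removed. Their r was 0.897, against 0.893 for Reg1 and Reg3d. By Spearman rho, Reg1 and Reg3d were higher (0.915 against 0.885). With the acinar score described below removed, Reg2 and Reg3a had the highest Pearson r (0.791 against 0.772). Capitals mark matches to 4 motifs, searched on both strands. The first is CACCTG, an E-box of the kind that acinar bHLH factors bind. The acinar factor complex PTF1 binds such an E-box together with the second motif, TTTCCC. The TATA box was searched as TATAAA, and the site of STAT factors as TTCNNNGAA. These motifs were chosen after the sequences had been seen.
Reg1, chr6:78425733-78425982, plus strand: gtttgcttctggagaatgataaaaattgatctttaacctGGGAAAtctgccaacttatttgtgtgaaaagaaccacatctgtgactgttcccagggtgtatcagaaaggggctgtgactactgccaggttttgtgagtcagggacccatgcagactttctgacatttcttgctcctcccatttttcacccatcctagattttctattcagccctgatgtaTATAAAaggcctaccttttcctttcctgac
Reg2, chr6:78404905-78405154, plus strand: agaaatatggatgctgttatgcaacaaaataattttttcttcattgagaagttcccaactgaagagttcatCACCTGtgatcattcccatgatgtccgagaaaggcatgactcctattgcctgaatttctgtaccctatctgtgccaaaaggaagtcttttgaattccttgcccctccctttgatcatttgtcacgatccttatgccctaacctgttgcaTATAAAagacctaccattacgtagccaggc
Reg3b, chr6:78370635-78370884, plus strand: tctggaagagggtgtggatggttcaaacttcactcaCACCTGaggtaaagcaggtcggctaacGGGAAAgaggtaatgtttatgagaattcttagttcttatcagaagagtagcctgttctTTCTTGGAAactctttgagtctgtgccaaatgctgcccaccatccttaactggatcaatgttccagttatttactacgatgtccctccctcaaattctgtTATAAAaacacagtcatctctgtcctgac
Reg3g, chr6:78468875-78469124, minus strand: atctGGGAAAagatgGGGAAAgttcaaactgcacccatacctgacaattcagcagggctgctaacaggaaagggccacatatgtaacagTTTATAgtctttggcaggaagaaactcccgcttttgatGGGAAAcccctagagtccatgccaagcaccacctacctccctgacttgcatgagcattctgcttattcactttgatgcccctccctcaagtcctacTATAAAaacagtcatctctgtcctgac

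The RefSeq starts of Reg1 and Reg2 lie inside the gene spans of the deposited table, and so does that of Reg3b. Reg3b and Reg3g were alike over 68.4% of aligned bases, although they sit at opposite ends of the cluster. Reg1 and Reg2 were alike over 56.2%, and the other 13 pairs over 46.1% to 52.4%. Set against the promoters of 17 acinar-list genes, the Reg promoters were alike over a median of 46.3% (41.4% to 51.1%). TATAAA was found in 4 of the 6 promoters (Reg1, Reg2, Reg3b and Reg3g), against 12.4% of 32851 RefSeq promoters of the same length. CACCTG was in 4 (Reg2, Reg3a, Reg3b and Reg3d), against 17.2%, and TTTCCC was in 4 (Reg1, Reg3b, Reg3d and Reg3g), against 21.95%. TTCNNNGAA was in 2 (Reg3b and Reg3d), against 7.02%, and in Reg3d it overlapped a TTTCCC match. The motifs were chosen after these sequences had been seen, and some of the promoters are alike. The shares are therefore descriptions and not tests. A match describes the letters in this window only.

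Total counts ran from 15.1 to 68.8 M per library (median 34.8 M), and libraries of band 4 were shallower (median 23.99 M). Islet hormone RNA was high in the libraries: Ins2 (insulin) ranged from 47459 to 228529 CPM (counts per M counts of the library), with a median of 91492. The acinar genes Cpa1 (a carboxypeptidase) and Prss2 (trypsinogen) had medians of 208.4 and 300.01 CPM and reached 4645 and 9337 CPM. Krt19, a duct keratin, had a median of 29.4 CPM. Of the 12 lymphocyte markers, 1 passed the filter on low counts.

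Reg1 was the most abundant member and Reg3a and Reg3g the least. Reg1 had a lowest, median and highest level of 0.0723, 52.5 and 1710 CPM. Reg2 ran from 0.0261 through 2.34 to 763.02 CPM. Reg3b had a median of 1.38 CPM and a highest value of 321.9 CPM. Every library had a Reg1 and a Reg2 count above 0, and 3 libraries were at 0 for Reg3b. Reg3d ranged from 0 to 47.3 CPM around a median of 0.662, with 12 libraries at 0. Reg3g reached 17.4 CPM around a median of 0.207, with 42 libraries at 0. Reg3a had a median of 0.0931 CPM and 94 libraries at 0, yet reached 91.8 CPM. A count of 0 allows up to 3 counts, which is 0.0493 to 0.205 CPM depending on the library, and this covers counting error only. Levels at or under 3 counts were found in 51.9% of libraries for Reg3a, 33.1% for Reg3g, 16.4% for Reg3d, 8.20% for Reg3b, 2.38% for Reg2 and in 1 library for Reg1.

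Levels can be set against each other only per length. Per kilobase of exon, median CPM was 58.03 for Reg1, 2.45 for Reg2, 1.21 for Reg3b, 0.847 for Reg3d, 0.113 for Reg3a and 0.0981 for Reg3g. The ranges over mice overlapped for all neighbours in this order.

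The spread between mice was wide for every member. The SD of log2 CPM with sex and band removed was 1.99 for Reg1, 2.35 for Reg2, 1.87 for Reg3a, 2.23 for Reg3b, 1.86 for Reg3d and 1.81 for Reg3g. Among the tested genes the median SD was 0.34, and all 6 members lay between percentiles 98.3 and 99.2 of it. A few mice held much of the summed level: the 5 highest mice held 16.1% of all Reg1 CPM, 36.2% of Reg2, 34.5% of Reg3b, 21.9% of Reg3d, 23.4% of Reg3g and 57.9% of Reg3a.

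The same mice recurred at the top. DO-103, a male of band 1, was among the 5 highest for all 6 genes, and DO-060 and DO-165 for 5 of them. DO-103 had 1194 CPM of Reg1, 763.02 of Reg2 and 190.2 of Reg3b, and its acinar score ranked 6 among all mice. DO-165, a female of band 2, was similar, with 1439 CPM of Reg1, 390.6 of Reg2 and an acinar rank of 8. DO-060, a female of band 1, differed from these: it had the highest Reg3b (321.9 CPM) and Reg3a (91.8 CPM) of all mice but ranked 39 for Reg1 (240.7 CPM), and its acinar score was at the edge of the highest 32.01%. DO-157, a female of band 2, ranked 2 for Reg3g (15.5 CPM) and 4 for Reg3b (126.04 CPM), but 50 for Reg1, and its acinar score was at the edge of the highest 33.3%. DO-228, a female of band 3, showed the reverse order for Reg1 and Reg3b, ranking 1 for Reg1 (1710 CPM) and 42 for Reg3b (9.53 CPM). In the other Reg3 genes DO-228 was nearer the top, ranking 6 for Reg3d, 12 for Reg3g and 19 for Reg3a. The highest Reg3 levels and the highest Reg1 levels were therefore not always in the same mice.

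**Figure D1:**
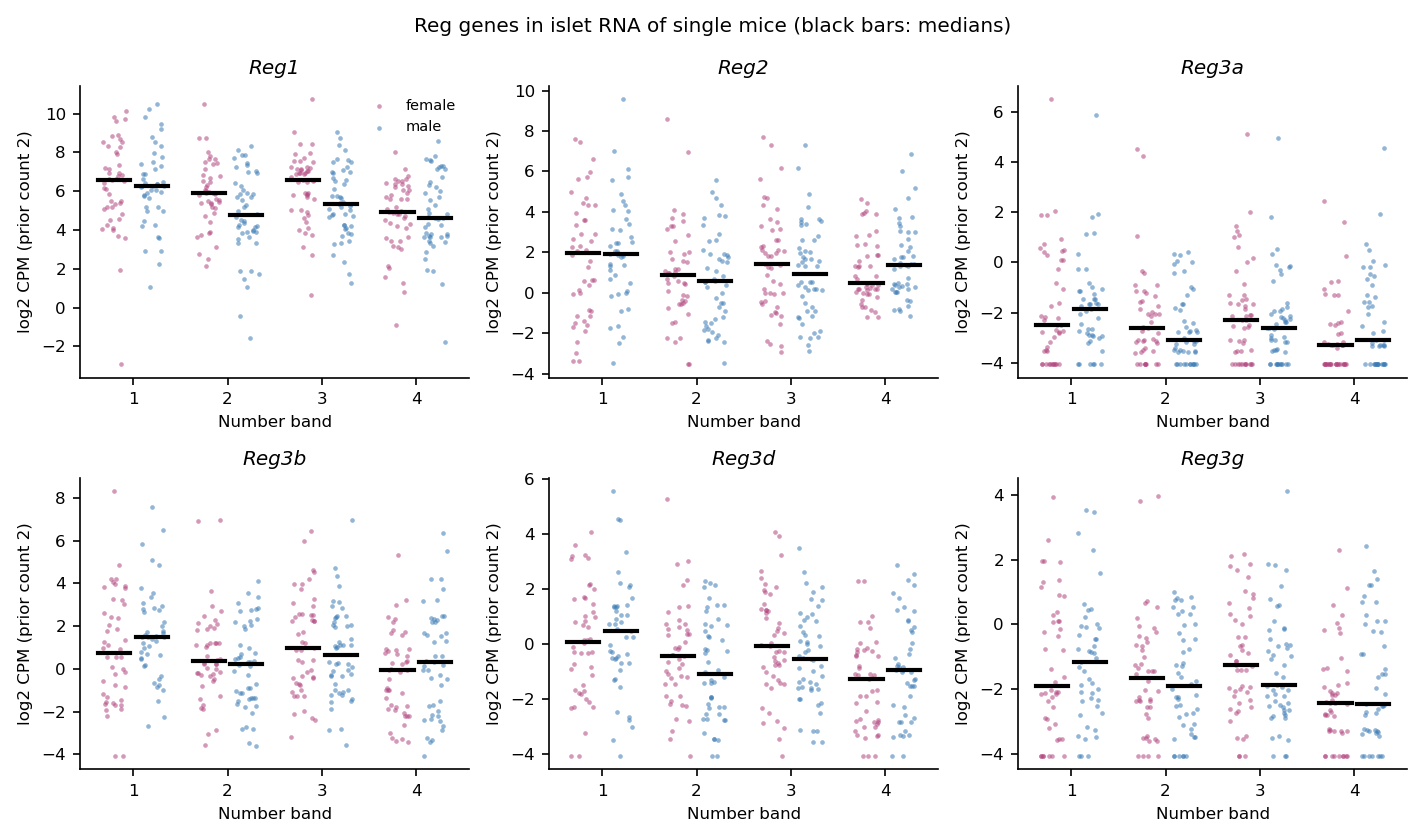
Level of each Reg gene in single mice (log2 CPM with prior count 2, vertical axis) by number band (horizontal axis) and sex; points are mice and black bars are medians. Females and males overlap in every band, and each gene spans several log2 units within a group.

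Each Reg gene was set against scores for cell types and inflammatory programmes, with sex and band removed. A score is the mean log2 CPM of the tested genes of a list, and no Reg gene is in a list. All 6 members followed the acinar score, made from 21 genes of digestive enzymes and other secretory proteins. Pearson r over all mice was 0.922 for Reg1, 0.844 for Reg3d, 0.743 for Reg3b, 0.740 for Reg3g, 0.647 for Reg2 and 0.554 for Reg3a. Spearman rho was 0.914, 0.853, 0.755, 0.767, 0.643 and 0.636 in the same order, and each permutation p was 1e-05, the smallest that 100000 permutations can give. Without the 2 mice farthest from the median score, r was 0.915 for Reg1 and 0.558 for Reg3a, and the other members lay between these. In each band alone r was 0.913 to 0.930 for Reg1 and 0.515 to 0.583 for Reg3a. The 6 genes and 14 lists gave 84 such relations, and adjusted p-values below come from models fitted over all tested genes.

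In edgeR, all 5 tested members rose with the acinar score, against 7.15% of all tested genes. Per SD of the score, a change of 1.72 in log2 CPM, the log2 level rose by 1.81 ± 0.04 (SE) for Reg1 and by 1.90 ± 0.06 for Reg3d. The values were 1.90 ± 0.11 for Reg3b, 1.76 ± 0.09 for Reg3g and 1.74 ± 0.11 for Reg2, and the largest adjusted p was 1.71e-41, for Reg2. Fitted without the filter on low counts, Reg3a rose by 1.87 ± 0.16 (edgeR, adjusted p = 1.52e-24). On the log2 scale for both axes the slope was 1.06 ± 0.02 for Reg1, 0.96 ± 0.04 for Reg3b, 0.91 ± 0.03 for Reg3d, 0.88 ± 0.05 for Reg2, 0.77 ± 0.04 for Reg3g and 0.60 ± 0.05 for Reg3a. Log2 values with a prior count flatten genes of low count, and Reg3a and Reg3g have the most libraries near 0. Sex, band and the acinar score together accounted for 86.4% of the variance of log2 Reg1, 73.3% of Reg3d, 57.1% of Reg3b, 56.2% of Reg3g, 43.3% of Reg2 and 32.6% of Reg3a. The SD left after this was 0.77 for Reg1 and 1.79 for Reg2.

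The summed level of the 21 acinar genes ran from 50.02 to 54430 CPM in females and from 93.5 to 98886 CPM in males, and none of the list's genes was lost to the filter. In bulk libraries, fewer cells of a type and less RNA per cell cannot be told apart, so these values do not separate the amount of acinar tissue from its Reg expression. A slope that differed by sex was tested with edgeR and called for 0 of 5 members, against 0.0236% of all genes; at an unadjusted p under 0.05 it was 1, Reg3b (0.51 ± 0.25 steeper in females, adjusted p = 0.581), and limma-trend also called 0.

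**Figure D2:**
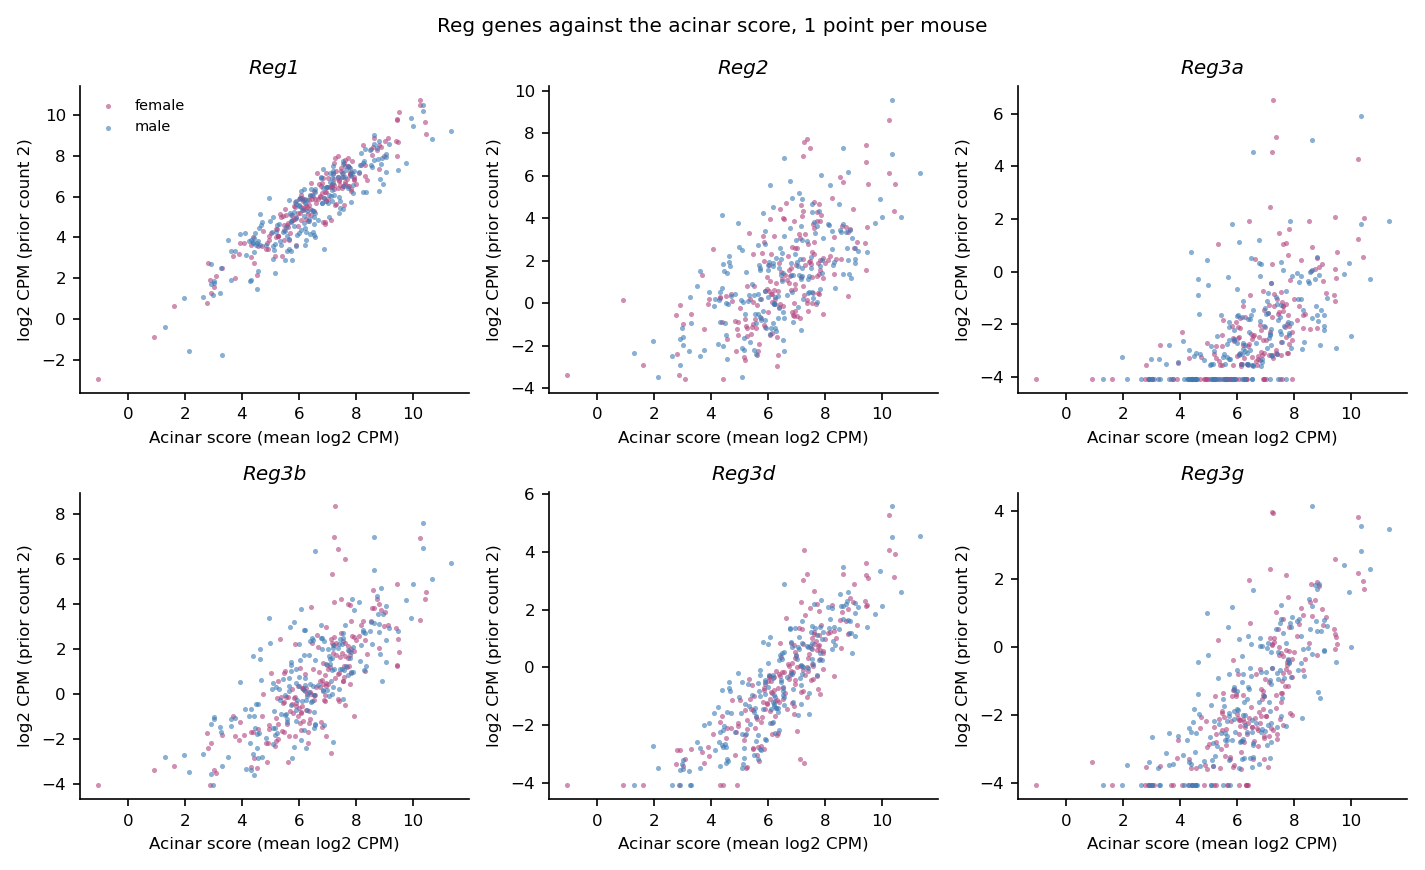
Level of each Reg gene (log2 CPM with prior count 2, vertical axis) against the acinar score (mean log2 CPM of 21 acinar genes, horizontal axis), with 1 point per mouse coloured by sex. Reg1 forms a narrow band (r = 0.922), Reg2 and Reg3a a wide one (r = 0.647 and 0.554), and the row of points at the bottom of Reg3a, Reg3d and Reg3g holds libraries at or near 0.

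Medians over the individual acinar genes were similar to the r with the score. The r of Reg1 with the 21 acinar genes had a median of 0.913 and a highest value of 0.932, for the lipase-related gene Pnliprp1. Its lowest value was 0.502, for the amylase gene Amy2b. Amy2b was also lowest for every other member, with r of 0.286 for Reg3a to 0.456 for Reg3d. Medians over the 21 genes were 0.832 for Reg3d, 0.730 for Reg3g, 0.728 for Reg3b, 0.633 for Reg2 and 0.544 for Reg3a. The score for acinar transcription factors (Ptf1a, Rbpjl, Bhlha15, Nr5a2 and others) gave r of 0.486 for Reg3a to 0.683 for Reg1. The score for acinar injury and metaplasia (Clu, Nupr1, Krt20 and others) gave 0.495 for Reg3a to 0.738 for Reg1. These lists were themselves correlated with the acinar score over mice (r = 0.752 and 0.760).

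Outside the family, Dmbt1 was the gene most like every member among 12752 genes of mean CPM at least 1. Dmbt1 encodes a secreted scavenger-receptor protein of mucosal surfaces and is not in any list. Its r was 0.934 with Reg1, 0.881 with Reg3d, 0.814 with Reg3b, 0.789 with Reg3g, 0.725 with Reg2 and 0.661 with Reg3a. Next for Reg1 were the acinar enzyme genes Pnliprp1, Prss2, Ctrb1 and Cpb1, with r of 0.928 to 0.932. For Reg2 the next were Spink1 (a trypsin inhibitor), Ggt1 (a glutathione-cleaving enzyme), Klk1 (a kallikrein) and Pnliprp1, with r of 0.667 to 0.677. Reg3b was followed by Spink1, Erp27 (a chaperone-like protein of the endoplasmic reticulum), Pnliprp1 and Klk1, with r of 0.756 to 0.779. The next genes for Reg3a, Reg3d and Reg3g came from the same set with Prss2. In the acinar score's own ranking, 11 genes outside its list had a higher r with it than Reg1, and 26 had a higher r than Reg3a, of 12731 compared.

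The duct score, made from 12 genes such as Krt19, Krt7 and Sox9, was correlated with every member, with r of 0.395 for Reg3a to 0.533 for Reg3g (permutation p 1e-05 for each). In edgeR all 5 tested members rose with it, against 11.8% of all genes, by 0.91 ± 0.08 for Reg1 to 1.26 ± 0.09 for Reg3g per SD. With the score taken as a median instead of a mean, 1 of 5 was called. Over all 16927 genes, 4124 were then called in either direction, against 4092 with the mean. The duct and acinar scores were correlated with each other (r = 0.505). With the acinar score removed, r with the duct score was -0.01 for Reg1 (permutation p = 0.812), 0.11 for Reg2, 0.16 for Reg3a and Reg3d, 0.17 for Reg3b and 0.28 for Reg3g (permutation p = 1e-05). In a single edgeR model with all 6 scores, the acinar score was called for 5 of 5 members (1.32% of all genes), and the duct score for 0 of 5 (8.66%). Reg3g had the largest duct term in that model, at 0.22 ± 0.10 (adjusted p = 0.138, unadjusted 0.0243), and limma-trend also called 0 of 5.

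Inflammatory genes were split into 4 scores. The score of acute phase genes and STAT3 targets (Socs3, Saa1, Saa2, Saa3 and others, 14 tested) had the highest r of the 4 for every member, from 0.366 for Reg1 to 0.464 for Reg3g. In edgeR fits with this score alone, 5 of 5 rose with it, against 22.7% of all genes, by 0.72 ± 0.08 for Reg1 to 1.19 ± 0.11 for Reg3b per SD. The score was also correlated with the acinar score (r = 0.357), whose part was therefore removed. What was left differed between members. Reg1 had r of 0.101 (permutation p = 0.0542). The other members had 0.229 for Reg3d, 0.236 for Reg2, 0.273 for Reg3a, 0.306 for Reg3b and 0.318 for Reg3g, each with a permutation p of 2e-05 or 1e-05. Without the 2 mice farthest from the median score, these became 0.222, 0.231, 0.253, 0.287 and 0.296.

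The model with 6 scores also had Reg3b and Reg3g highest and Reg1 lowest. Per SD of the acute phase and STAT3 score, Reg3b rose by 1.10 ± 0.14 (edgeR, adjusted p = 1.55e-11), Reg3g by 0.83 ± 0.12 (3.41e-09), Reg2 by 0.58 ± 0.16 (0.00204) and Reg3d by 0.41 ± 0.09 (4.83e-05). Reg1 was at 0.14 ± 0.06 and was not called (adjusted p = 0.0656), so 4 of 5 were called, against 19.5% of all genes. Without the 4 mice that were highest in any member the values were 0.78, 0.65, 0.44 and 0.29, with the same 4 called. Without band 4, whose Reg2 counts were of another kind (described below), Reg2 rose by 0.92 ± 0.20 (edgeR, adjusted p = 9.19e-05).

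The score of chemokine and NF-kB target genes (Cxcl1, Cxcl2, Cxcl5, Ccl2 and others, 16 tested) was positive by itself and negative in the joint model. By itself, 5 of 5 members rose with it, by 0.48 ± 0.11 for Reg3g to 0.72 ± 0.14 for Reg2 per SD, against 21.8% of all genes. Jointly, Reg3b fell by 0.92 on the log2 scale per SD (SE 0.15), Reg3g fell by 0.80 (SE 0.13) and Reg3d fell by 0.27 (SE 0.09), so 3 of 5 were called, against 21.2% of all genes. Without the 4 mice that were highest in any member, 2 of 5 were called, with Reg3d at -0.19 (edgeR, adjusted p = 0.0866). With limma-trend and without band 4, 4 of 5 were called, with Reg2 at -0.35 (limma-trend, adjusted p = 0.0451) and -0.49 (edgeR, adjusted p = 0.0430). The score was correlated with the acute phase and STAT3 score (r = 0.752), so each joint term describes what the other leaves. Without the chemokine score in the model, the acute phase and STAT3 terms were smaller, at 0.64 for Reg3b, 0.37 for Reg3g, 0.40 for Reg2 and 0.26 for Reg3d. All 4 were still called, and the term of Reg3g was then no higher than that of Reg2. With the acinar score alone removed, r with the chemokine score was 0.05 for Reg1 and Reg3b, and at most 0.13, for Reg2.

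Interferon response genes (Irf7, Isg15, Ifit1, Ifit2 and others, 18 tested) were weakly related to the family, with r of 0.159 for Reg1 to 0.222 for Reg2. By itself the score was called for 5 of 5 (16.5% of all genes), and jointly for Reg2 alone, at 0.35 ± 0.12 per SD (adjusted p = 0.018, 11.5% of all genes). That call was lost without the chemokine score in the model (edgeR, adjusted p = 0.0713) and without band 4 (0.33 ± 0.13, adjusted p = 0.0510). The macrophage score (Adgre1, Cd68, C1qa, C1qb and others, 14 tested) had r of 0.118 to 0.172. It was called by itself for Reg3g alone, at 0.34 ± 0.10 per SD (17.5% of all genes), and jointly for Reg3g alone, at 0.30 ± 0.08 (14.3%). Without band 4 the joint term was called for Reg3g and for Reg3b (0.33 ± 0.10, edgeR, adjusted p = 0.0126). That count of 1 by itself ranged from 0 to 5 over the alternatives, so it depends on the score and the tool.

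**Figure D3:**
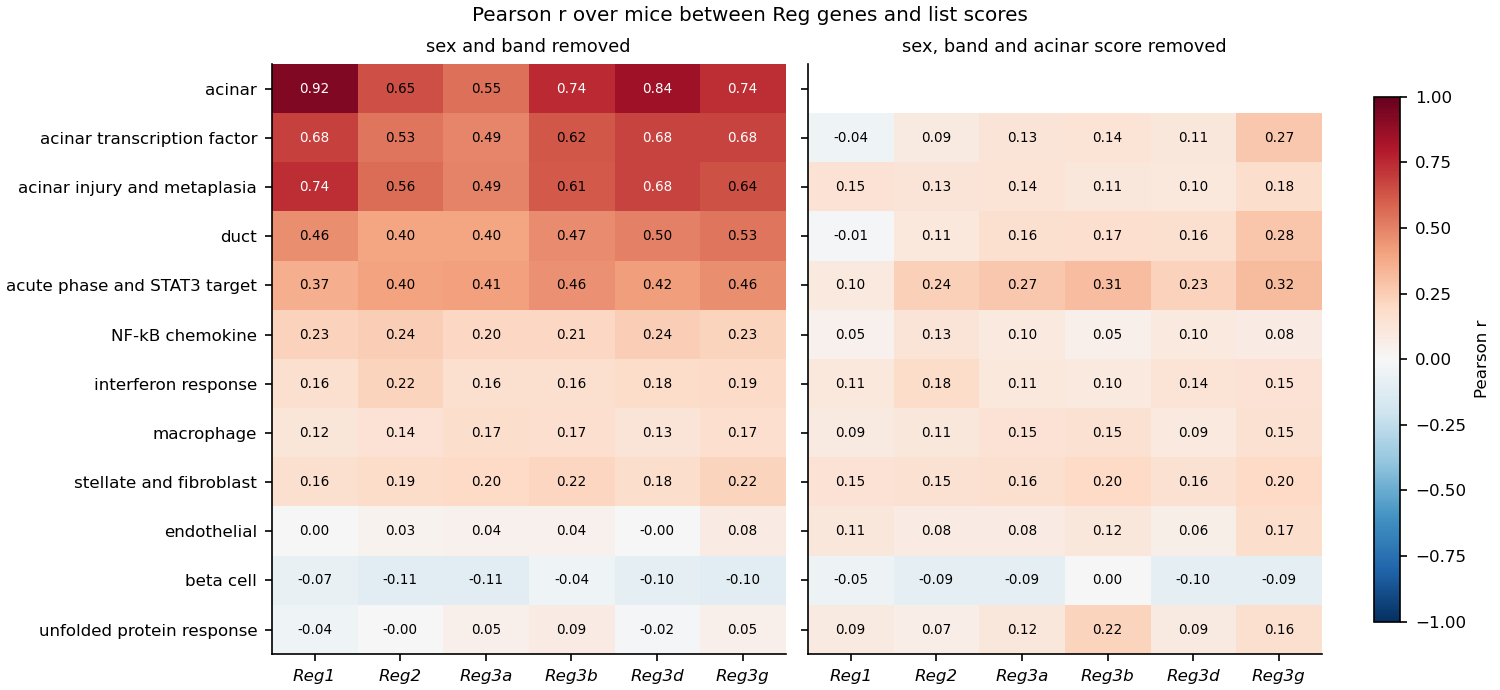
Pearson r over all mice between each Reg gene (columns) and each list score (rows), on the left with sex and band removed and on the right with the acinar score removed as well. The acinar rows lead on the left; on the right the acute phase and STAT3 row is highest for Reg2, Reg3a, Reg3b, Reg3d and Reg3g (0.229 to 0.318), and Reg1 is at 0.101.

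Levels were also taken relative to Reg1, as the log2 ratio of each gene to Reg1 within a mouse. These ratios share Reg1 as the denominator, and the prior count flattens those of the genes with few counts, Reg3a and Reg3g most. The ratio of Reg3b to Reg1 was correlated with the acute phase and STAT3 score (r = 0.211, rho = 0.182, permutation p = 2e-05), and that of Reg2 to Reg1 less closely (r = 0.144, permutation p = 0.006). The ratios of Reg3a, Reg3d and Reg3g had r of 0.025, 0.051 and 0.084 with this score.

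The members followed each other more closely than the acinar score alone describes. Over the 15 pairs, r with sex and band removed ran from 0.661 (Reg1 and Reg3a) to 0.897 (Reg3b and Reg3g). With the acinar score removed as well, r was lower for all 15 pairs and ran from 0.315 (Reg1 and Reg3g) to 0.791 (Reg2 and Reg3a). Reg3b and Reg3g, 95.6 kb apart at the ends of the cluster, stayed at 0.772, and the neighbours Reg3b and Reg3d, 5.22 kb apart, were at 0.622. Reg1 stood somewhat apart, with r of 0.315 to 0.640 to the others, against 0.571 to 0.791 among the other 5. With all 6 scores removed the pairs ran from 0.300 (Reg1 and Reg3g) to 0.779 (Reg2 and Reg3a). Without band 4, the pairs of Reg2 ran from 0.603 (with Reg3g) to 0.818 (with Reg3a) with the acinar score removed. These correlations are descriptions, and the part of reads shared between alike genes was not tested. The deposited counts were whole numbers (within 1e-09) in every library for 5 members and in 62.4% of libraries for Reg2.

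**Figure D4:**
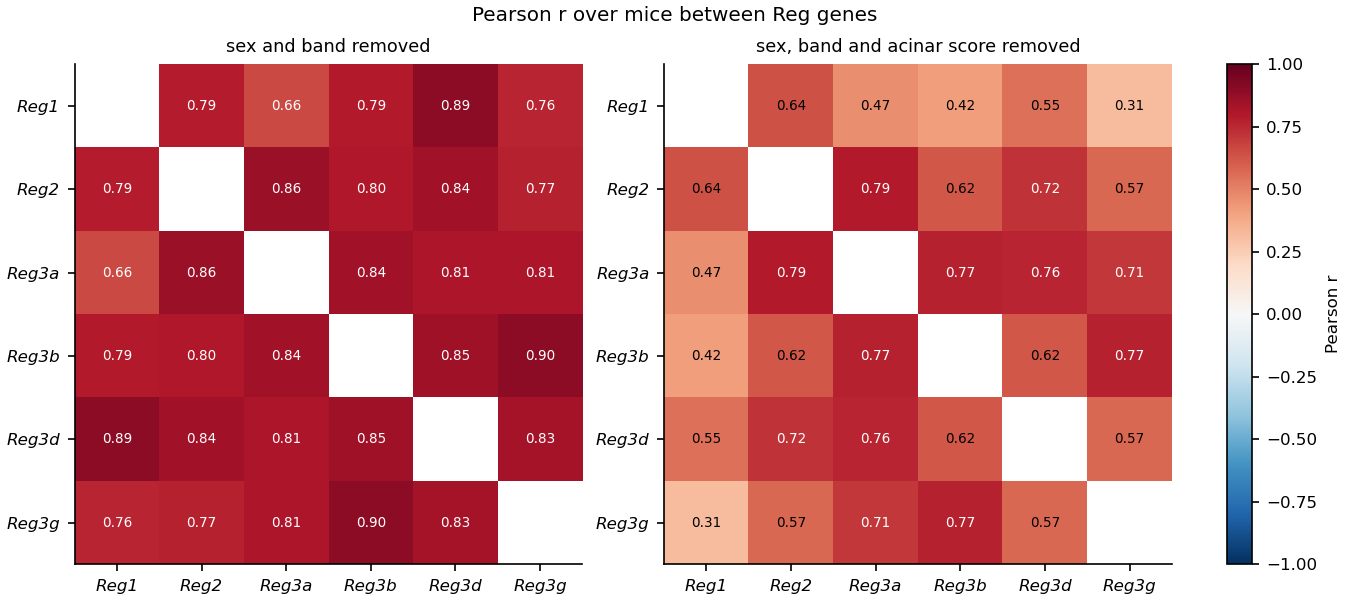
Pearson r over all mice between Reg genes, on the left with sex and band removed and on the right with the acinar score removed as well. All pairs stay positive on the right, and the row of Reg1 is the palest (0.315 to 0.640).

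With the acinar score removed, Dmbt1 was still the gene most like every member, with r of 0.465 for Reg1, 0.474 for Reg2, 0.533 for Reg3a, 0.526 for Reg3b, 0.468 for Reg3d and 0.415 for Reg3g. The other genes near the top were below 0.36. For Reg1 they were Pnliprp1, Capg (an actin-capping protein), Faim and Ctrb1. For Reg3b they were Spink1 (0.354), Lcn2 (0.332), Tph2 and Gsdma, of which Lcn2 (lipocalin 2, an iron-trapping acute phase protein) belongs to the acute phase and STAT3 list. For Reg3g they were Col7a1, Erp27, Pnrc1 and Spink1 (0.347 to 0.356).

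All 5 tested members differed between number bands in edgeR, as did 87.9% of all genes. Median Reg1 was 81.6, 46.9, 58.6 and 28.5 CPM in bands 1 to 4, and medians of Reg3b were 2.34, 1.18, 1.93 and 0.991 CPM. Band 4 was lower than band 1 by -1.80 ± 0.27 log2 for Reg1, -1.89 ± 0.38 for Reg2, -1.77 ± 0.30 for Reg3d, -1.55 ± 0.36 for Reg3b and -1.25 ± 0.32 for Reg3g. The Reg2 estimate was larger than its typical levels show. Medians of Reg2 were 3.78, 1.52, 2.41 and 1.94 CPM in bands 1 to 4. Its mean log2 CPM was 1.87, 0.82, 1.26 and 1.34, so band 4 was above bands 2 and 3 on that scale. Band 1 holds DO-103, with 763.02 CPM of Reg2. The summed acinar level moved with the bands, with medians of 4311, 3092, 4477 and 2460 CPM, and its part in the band difference was not tested. In the authors' deposited log2-like values 0 of 5 members, and 0 of all 16927 genes, differed between bands by limma.

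Reg2 counts were of another kind in band 4. There they were whole numbers, within 1e-09, in 21.3% of libraries, against 76.1% in bands 1 to 3, and 1.65% of all genes dropped as far. The lowest Reg2 level was 0.371 CPM in band 4, against 0.0261 to 0.0730 CPM in the other bands, although band 4 was the shallowest. Without band 4, the rise of Reg2 per SD of the acinar score was 1.88 ± 0.13 (1.74 ± 0.11 with it).

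The sex difference was the only contrast in the labels. In edgeR with band as a term, 0 of 5 members were called by sex, against 50.6% of all genes; at an unadjusted p under 0.05 it was also 0. Medians in females and males were 59.6 and 41.1 CPM for Reg1, 2.02 and 2.47 for Reg2, 1.28 and 1.49 for Reg3b, 0.685 and 0.638 for Reg3d, 0.193 and 0.221 for Reg3g, and 0.0903 and 0.0960 for Reg3a. The ranges of the sexes overlapped for all 6. The log2 difference, female minus male, was 0.32 ± 0.19 for Reg1 (95% interval -0.05 to 0.69, adjusted p = 0.147). For Reg2 it was 0.17 ± 0.27 (interval -0.36 to 0.70), for Reg3b 0.17 ± 0.26 (-0.34 to 0.67), for Reg3d 0.10 ± 0.21 (-0.31 to 0.51) and for Reg3g 0.05 ± 0.22 (-0.39 to 0.49). Reg3a, fitted without the filter, was at 0.42 ± 0.31 (adjusted p = 0.271). The wide intervals leave room for differences of up to about 0.70 log2 in these 5 tested genes.

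Reg1 was called, higher in females, in 3 other settings: with limma-voom (0.48 ± 0.21, adjusted p = 0.0408), in the deposited log2-like values with limma (0.41 ± 0.18, adjusted p = 0.0418) and without band 4 (0.57 ± 0.22, edgeR, adjusted p = 0.0244). Without band 4 the other members also had larger differences that were not called by edgeR, at 0.57 ± 0.33 for Reg2 (adjusted p = 0.148), 0.60 ± 0.29 for Reg3b (0.0800), 0.39 ± 0.24 for Reg3d and 0.28 ± 0.26 for Reg3g. The acinar score had medians of 6.72 in females and 6.37 in males. It was higher in females in bands 2 and 3 (6.60 and 7.16, against 6.21 and 6.46). In bands 1 and 4 it was higher in males (7.05 and 6.18, against 6.76 and 5.98). By sex, 0 of the 21 acinar genes were called by edgeR, against 50.6% of all genes. With the acinar score as a covariate, edgeR called 0 of 5 members by sex, and 8538 of 16927 genes.

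Within single bands the sign varied. In band 2, Reg2 and Reg3b were higher in females, by 1.47 ± 0.53 (adjusted p = 0.0287) and 1.50 ± 0.47 (0.0115), and in band 4 both were lower in females, by -1.05 ± 0.39 (0.0379) and -1.24 ± 0.48 (0.0422), all by edgeR. Each of these 4 calls was lost when 1 mouse, the highest in that gene, was left out. That mouse was of the higher sex each time, so leaving it out makes the difference smaller by design. Other mice were not left out in this way. Without DO-165, the highest in Reg2 in band 2, Reg2 was at 0.24 (adjusted p = 0.749) and Reg3b at 0.91 (0.116). Without DO-157, the highest in Reg3b, Reg3b was at 0.86 (0.136) and Reg2 at 1.21 (0.0751). Without DO-408, a male and the highest in both in band 4, Reg2 was at -0.60 (0.224) and Reg3b at -0.73 (0.226). The interaction of sex and band was called for 0 of 5 members, against 1.09% of all genes (edgeR adjusted p of 0.0694 for Reg2, 0.0736 for Reg3b, 0.0823 for Reg3d, 0.248 for Reg1 and 0.292 for Reg3g). All 5 were under 0.05 before adjustment, but the share of all genes at that threshold is not given here. The members are also correlated with each other over mice, so these are not 5 separate results. Limma-voom also called 0.

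**Figure D5:**
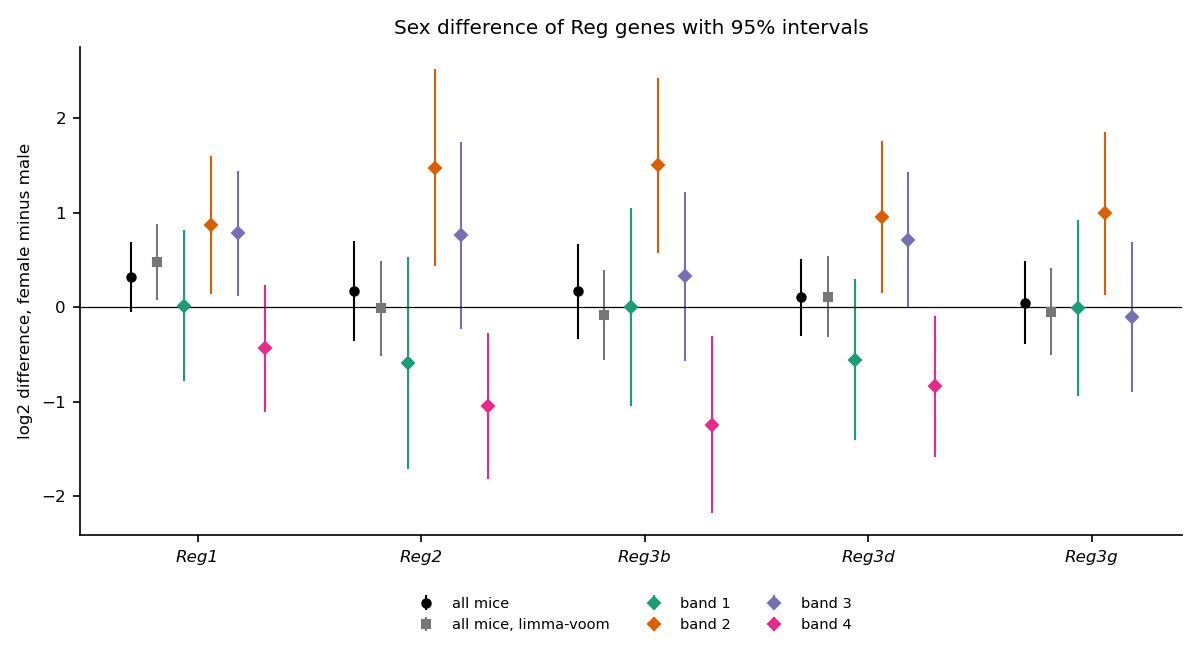
Log2 difference between females and males (vertical axis, female minus male) of the 5 tested Reg genes, with 95% intervals, for all mice by edgeR, for all mice by limma-voom and for each number band alone by edgeR. Over all mice the edgeR intervals include 0, Reg1 by limma-voom lies at 0.48, and bands 2 and 4 lie on opposite sides of 0; Reg3g was not tested in band 4 alone.

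The genes through which Reg proteins signal or are induced were looked at as a list of 20, of which 18 passed the filter (Il22ra1 and Gfi1 did not). Extl3, a proposed Reg receptor, had 46.1 ± 8.35 CPM in females (SD over all females) and 46.01 ± 6.64 in males, a log2 difference of -0.01 ± 0.02 (edgeR, adjusted p = 0.81). By sex, 3 of the 18 were higher in females, against 21.7% of all genes: the kinases Jak1 (0.11 ± 0.02) and Jak2 (0.10 ± 0.03) and the STAT-induced inhibitor Cish (0.15 ± 0.06). The IL-6 receptor Il6ra was lower, at 73.3 ± 14.3 CPM in females and 90.9 ± 22.4 in males (log2 -0.31 ± 0.03, edgeR, adjusted p = 3.02e-19), and it was the only member of the list that was lower in females, against 28.8% of all genes. With the acinar score, 3 of the 18 rose, against 7.15% of all genes, and by less per SD than the Reg genes: Osmr (oncostatin M receptor, 0.07 ± 0.02), Socs3 (a STAT3-induced inhibitor, 0.08 ± 0.03) and Myd88 (the Toll-like receptor adaptor, 0.06 ± 0.02). Il6ra fell by 0.05 on the log2 scale per SD (SE 0.02), against 7.53% of all genes. Stat3 itself had 587.3 ± 102.97 CPM in females and 575.6 ± 98.9 in males and was called for neither. The median over the 18 genes was -0.01 for sex and 0.01 for the acinar score, against -0.01 and 0.00 over all tested genes.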

How the data were processed

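Poly(A)-selected RNA was sequenced from islets of each mouse. The authors deposited estimated counts per gene that are not scaled between libraries, and a second table of values on a log2-like variance-stabilised scale. GRCm38 and DESeq2 are named, without versions, in the submitters' processing notes. Names of the alignment and counting programs were not given in the sources used here. Of 16927 genes, 14875 differed between bands in the counts and 0 in the deposited log2 values. The deposited values were thus already level between bands, and the sources used here do not say how. The counts were therefore the main data.

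Counts were rounded and tested with edgeR 4.0.16 in R 4.3.3 (TMM factors, filterByExpr by sex, quasi-likelihood F test, sex and band as terms, Benjamini-Hochberg over 16927 genes, threshold 0.05). CPM used the TMM-scaled library sizes, and log2 CPM a prior count of 2. SEs are the absolute log2 change over the square root of F. Scores were scaled to SD 1 with sex and band removed. Correlations used permutations within sex and band (SciPy 1.17.1, NumPy 2.4.6, Python 3.11.15). Alternatives were DESeq2 1.42.0, limma 3.58.1 (voom, trend and the deposited values), other factors, filters and scores, and single bands. The fits without named mice or without the chemokine score, the joint fits and pairs without band 4, the pairs with 6 scores removed, and the ratios to Reg1 were added after seeing the data. Fits were tested on simulated data. Nothing says how the mice or libraries were grouped in handling, so p-values measure the spread between these mice.

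The text names the Reg genes, the 5 genes most like each, the members of the signalling list and the first 4 members of other lists, of which 1 is not reported here. Lcn2, Klk1 and the other like genes come from this rule, and Amy2b is named as the acinar gene of lowest r. Lists were also made for stellate and fibroblast, endothelial, beta cell and unfolded protein response genes. The members and lists were chosen with earlier results of these data known. Other named lists are those in the report. The lymphocyte list had 1 tested gene. It is counted among the 14 lists, but its relations to the Reg genes are not described.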

Additional observations from a re-analysis of the deposited data

How the results depend on the processing

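All associations with the acinar score kept their direction and their call under every alternative that was run: 5 of 5 tested members were called in each fit (6 of 6 without the filter), and r stayed positive for all 6. The sex by acinar score term was called for 0 of 5 with edgeR and with limma-trend, but its sign turned for some members, as given below. With the deposited values r was 0.922 for Reg1, 0.595 for Reg2 and 0.454 for Reg3a. The number of members called moved elsewhere, and the cause was not tested. For the duct score it was 1 with the median score, where 4124 of 16927 genes were called in either direction. For the macrophage score it was 4 with limma-trend, 5 with the deposited values, 0 with the median score and 3 with the first part of the list, and jointly 0 with limma-trend and 2 without band 4. In that order these fits called 5690, 5936, 5848 and 5842 of 16927 genes, and jointly 4185 of 16927 and 3076 of 17005. For the interferon response score it was jointly 0 without the chemokine score (4066 of 16927 genes) and 0 without band 4 (3866 of 17005). For the joint chemokine term it was 4 with limma-trend (6868 of 16927 genes), 4 without band 4 (5690 of 17005) and 2 without the 4 highest mice (6976 of 16920). For bands it was 0 with the deposited values. By sex it was 2 in band 2, 2 in band 4, and 1 each with limma-voom (8481 of 16927 genes), the deposited values (8529 of 16927) and no band 4 (7692 of 17005). The number of genes that differed by sex was 8561, and 2873, 4687, 2632 and 4247 in bands 1 to 4 alone, which hold fewer mice.

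Signs turned in several settings, and the turned values passed the threshold only for Reg2 and Reg3b by sex in band 4. The sex difference became, in band 1 alone, -0.59 for Reg2, -0.55 for Reg3d, -0.0015 for Reg3b and -0.0097 for Reg3g, and -0.10 for Reg3g in band 3. In band 4 it was -0.44 for Reg1, -1.05 for Reg2, -1.24 for Reg3b and -0.84 for Reg3d, and without DO-408 it was -0.43, -0.60, -0.73 and -0.66. With limma-voom it was -0.014 for Reg2, -0.084 for Reg3b and -0.050 for Reg3g, with the deposited values -0.044 for Reg3b and -0.0087 for Reg3g, with DESeq2 -0.15 for Reg2, and with the acinar score as a covariate -0.0049 for Reg2 and -0.060 for Reg3d. The macrophage association became -0.16 for Reg2 and -0.0077 for Reg3d with the median score, and -0.024 for Reg2 without band 4. The joint duct term of Reg3b became -0.18 without band 4, and that of Reg3d became 0.074 with limma-trend and 0.012 without the chemokine score, which also turned the joint interferon terms of Reg3b (-0.026) and Reg3g (-0.048). The sex by acinar term became -0.026 for Reg3d and -0.011 for Reg3g with limma-trend. The r of Reg1 became -0.012 with the duct score once the acinar score was removed, and -0.014 with the interferon response score in band 4.

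No paired analysis was possible because each mouse number belongs to a single mouse. Depth limits Reg3a and Reg3g most, whose median counts were 3 and 7 per library.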

Other observations

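Scores for other cell types and programmes were set against the Reg genes in the same way. The stellate and fibroblast score (Col1a1, Col1a2, Col3a1, Pdgfrb and others) had r of 0.162 for Reg1 to 0.220 for Reg3g, and 0.145 for Reg1 to 0.202 for Reg3g with the acinar score removed. The endothelial score (Pecam1, Cdh5, Kdr, Flt1 and others) had r of 0.00 to 0.08, and 0.06 to 0.17 with the acinar score removed. The beta cell score (Ins1, Ins2, Iapp, Pdx1 and others) had r of -0.11 to -0.04. The unfolded protein response score (Hspa5, Ddit3, Atf4, Trib3 and others) had r of 0.086 with Reg3b, and 0.219 (permutation p = 2e-05) with the acinar score removed, and its r with the other members was then 0.07 to 0.16. The score of the signalling list had r of 0.091 to 0.156.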
